A study of Homo sapiens with 6 samples.

Results

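The HOX genes are the 39 homeobox genes of the HOXA, HOXB, HOXC and HOXD clusters, taken from the deposited table by their symbols, among 61806 genes. HOXA held 11 of them on chromosome 7, HOXB 10 on chromosome 17, HOXC 9 on chromosome 12 and HOXD 9 on chromosome 2. Every member had a row in the table, but 24 of the 39 had no library above 3 counts, and 10 passed the filter on low counts and were tested. The RNA came from MDA-MB-231, a human triple-negative breast cancer line, in 3 groups of 2 libraries: cells with the control vector (shNC) and cells with either of the short hairpin RNAs against HMGA2 (shHMGA2-1 and shHMGA2-2). HMGA2 is an architectural protein that binds AT-rich DNA. The comparisons ask how the transcripts of cells with less HMGA2 differ from those of control cells.

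The study's methods describe lentiviral infection, puromycin selection and growth of the lines from single clones. Whether the control is a clone is not given in the sources used here. A hairpin and its clone therefore cannot be told apart, and nothing in the labels says that the 2 libraries of a line came from separate cultures, so p-values measure only the spread between these libraries. The control libraries carry WT in their library names where the titles read shNC, and the names of the shHMGA2-1 libraries carry SH2. The groups rest on the titles. HMGA2 itself was counted at 2126 and 2161 with shNC, 858 and 989 with shHMGA2-1, and 435 and 482 with shHMGA2-2. It was lower in both knockdown lines, at -1.29 in shHMGA2-1 (standard error 0.0867) and -2.31 in shHMGA2-2 (standard error 0.0927) on the log2 scale.

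Libraries held 16461178 to 17167293 counts. Of the markers of the line, VIM, CD44, AXL and CAV1 were present in every library, and CDKN2A and CDKN2B, which the line lacks, were at 0. ESR1 reached at most 12 counts and PGR at most 2. Summed markers of leukocytes lay between 0.307 and 1.53 CPM (counts scaled to library size) in the 6 libraries. Of these 6 markers CD3E was at 0 throughout, 3 exceeded 3 counts in some library with at most 16 counts, and none was tested. The fibroblast markers DCN and LUM were at 0. Of 5 tested luminal markers, 3 passed the test at 2-fold in shHMGA2-2, where 21.3% of all tested genes did: GATA3 and KRT8 were higher and FOXA1 was lower. The summed luminal markers were 212.9 to 213.1 CPM in shNC, 189.7 to 209.8 in shHMGA2-1 and 308.4 to 327.7 in shHMGA2-2. The fibroblast list had 2 tested markers, both of them collagen or receptor genes (COL1A1 and PDGFRB) that passed in at least 1 line. They went opposite ways in shHMGA2-1, 1 called as higher and 1 as lower (log2 fold changes 1.60 and -1.57), beside 8.49% of all tested genes called. In shHMGA2-2, 1 was called as higher. The sum of this list was 4.55 to 6.82 CPM in shNC, 11.4 to 14.2 in shHMGA2-1 and 8.32 to 8.36 in shHMGA2-2. Of the 2 tested endothelial markers PECAM1 was lower in both lines, and that sum was 4.42 to 4.49, 2.77 to 3.80 and 2.77 to 3.49 CPM. The part of any of these in the HOX values was not tested. In bulk RNA, fewer cells that express a gene and less RNA per cell cannot be told apart.

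HOX proteins are transcription factors that set the identity of body segments along the head-to-tail axis of the embryo. Genes with low numbers lie at one end of each cluster and are used in anterior parts, genes with high numbers lie at the other end and are used in posterior parts, and members with the same number in different clusters are paralogues. Trithorax proteins keep the clusters active and Polycomb proteins keep them silent, while TALE proteins such as MEIS proteins bind DNA together with HOX proteins. In breast tissue several HOX genes are used in development, and HOXB9 and HOXC6 have been studied in breast cancer.

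The homeobox encodes the domain that contacts DNA. The homeoboxes of HOXB9 and its paralogues HOXC9 and HOXD9 are given because HOXB9 had the highest counts of all members over the 6 libraries together and these paralogues had few or none. They come from GENCODE version 29 transcripts on GRCh38, are 180 bases long, lie in the coding part of exon 2 of 2 and read 5′ to 3′ along each transcript. Capitals mark the 18 bases that encode the invariant core of the third helix. HOXB9 is at chr17:48622921-48623100 on the minus strand. HOXC9 is at chr12:54002465-54002644 and HOXD9 at chr2:176123969-176124148, both on the plus strand.
HOXB9: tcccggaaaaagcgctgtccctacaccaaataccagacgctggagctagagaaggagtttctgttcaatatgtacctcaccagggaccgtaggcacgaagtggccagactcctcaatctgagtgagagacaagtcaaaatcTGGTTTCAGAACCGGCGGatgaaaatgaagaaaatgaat
HOXC9: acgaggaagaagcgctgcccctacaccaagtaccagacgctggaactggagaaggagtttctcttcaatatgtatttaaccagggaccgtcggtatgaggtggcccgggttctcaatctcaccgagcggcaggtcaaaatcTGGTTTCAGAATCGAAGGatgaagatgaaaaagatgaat
HOXD9: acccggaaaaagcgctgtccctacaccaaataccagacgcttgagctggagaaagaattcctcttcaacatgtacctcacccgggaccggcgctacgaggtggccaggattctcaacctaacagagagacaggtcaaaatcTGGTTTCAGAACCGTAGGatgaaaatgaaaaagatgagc
The HOXB9 homeobox was identical to that of HOXD9 at 84.4% of bases and to that of HOXC9 at 82.2%. The longest exact run that the HOXB9 transcript shared with either of these was 40 bases, with HOXD9. HOXD9 had 0 counts in every library. HOXA9, the remaining paralogue, is not printed. Its homeobox was identical to that of HOXB9 at 83.3% of bases, and HOXA9 also had 0 counts in every library.

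The promoters of HOXD3 and HOXD4 are given because both genes were lower in shHMGA2-2. They are RefSeq windows on GRCh38.p14, plus strand, from 250 bases before to 50 bases after the start. Capitals mark the longest run of A and T, or the first of them where runs tie. The HOXD4 window is at chr2:176151300-176151599 and the HOXD3 window at chr2:176157057-176157356. The table places HOXD4 (176151550 to 176153226) inside the span of HOXD3 (176136612 to 176173102), whose longer transcripts start before it, so the HOXD3 window lies at an inner start.
HOXD4: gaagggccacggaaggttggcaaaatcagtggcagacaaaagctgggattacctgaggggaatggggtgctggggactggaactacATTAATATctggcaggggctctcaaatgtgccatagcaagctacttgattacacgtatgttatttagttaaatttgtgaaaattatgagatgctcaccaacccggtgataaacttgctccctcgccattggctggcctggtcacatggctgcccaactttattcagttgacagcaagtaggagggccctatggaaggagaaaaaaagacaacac
HOXD3: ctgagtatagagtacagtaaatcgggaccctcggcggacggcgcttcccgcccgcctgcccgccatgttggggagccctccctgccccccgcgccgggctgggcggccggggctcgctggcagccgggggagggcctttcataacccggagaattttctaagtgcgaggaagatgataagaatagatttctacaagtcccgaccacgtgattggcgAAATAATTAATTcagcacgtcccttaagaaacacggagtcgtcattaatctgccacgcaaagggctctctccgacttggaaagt
The HOXD4 window was 52.7% A and T and the HOXD3 window 42.0%, against a median of 41.3% over 34796 promoters. The longest run was 8 bases in HOXD4, and 37.0% of all promoters held one at least as long. In that window ttaaattt and aaaattat, further along, were as long as the marked run. The longest run was 12 bases in HOXD3, a length reached by 11.8% of promoters. CpG pairs numbered 4 in HOXD4 and 25 in HOXD3, with a median of 14 over all. Neither window held TGATNNAT, a site of TALE and HOX proteins present in 7.42% of promoters on either strand, or TATAAA, present in 11.6%. These are descriptions of letters and show no binding. RefSeq windows were found for 20 of the 39 members.

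Most HOX genes had few or no counts in this line. Of the 39, 16 had 0 counts in all 6 libraries, which allows at most 3 counts in a library or 0.175 to 0.182 CPM. A further 8 reached at most 3 counts. The remaining 15 exceeded 3 counts in at least 1 library, and 8 did so in every library. In HOXA, 7 of 11 members were at 0 throughout and HOXA13, the last gene of the cluster, was alone above 3 counts. HOXB had 5 of 10 above it (HOXB3, HOXB4, HOXB7, HOXB8 and HOXB9), HOXC 5 of 9 (HOXC4, HOXC5, HOXC6, HOXC8 and HOXC9) and HOXD 4 of 9 (HOXD1, HOXD3, HOXD4 and HOXD12). By position, 3 of 8 members of groups 1 to 3 were above 3 counts, 8 of 15 of groups 4 to 8, and 4 of 16 of groups 9 to 13.

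**Figure D1:**
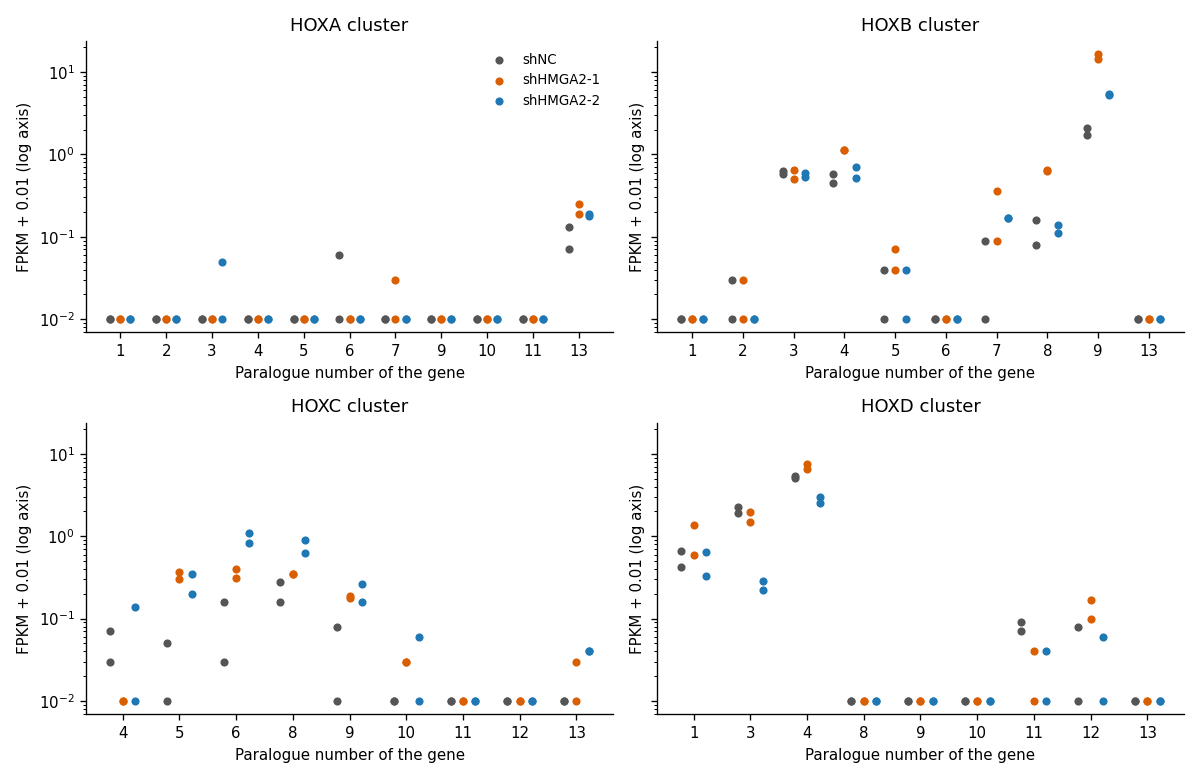
Level of each HOX gene in FPKM plus 0.01 on a log axis, in the order of the genes along each cluster, with 2 points per group for the 2 libraries. HOXB9 and HOXD4 stand highest, and points at 0.01 are genes with 0 counts.

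Counted per length, the control cells used mainly the HOXD cluster. Summed over the 39 genes the level was 11.6 ± 0.474 FPKM (a count divided by exonic length and by the library total, mean and SD, n = 2) in shNC, 29.3 ± 1.65 in shHMGA2-1 and 12.8 ± 0.686 in shHMGA2-2. HOXD genes made up 68.4% of this sum in shNC, 33.6% in shHMGA2-1 and 27.6% in shHMGA2-2. HOXB genes made up 27.2%, 61.5% and 52.9% in the same order. HOXC genes made up 3.38%, 4.15% and 18.0%, and HOXA genes 1.01%, 0.754% and 1.53%. The 2 libraries of each line lay on the same side of the other lines for the HOXB, HOXC and HOXD sums in FPKM, whose ranges did not overlap between lines. In CPM the HOXD sums of shNC (14.9 and 16.0) and shHMGA2-1 (17.4 and 15.5) overlapped. A sum over a cluster was led by few genes: in shHMGA2-1, HOXB9 alone had 15.5 of the 18.0 FPKM of HOXB. Groups 9 to 13 together went from 2.12 ± 0.127 FPKM in shNC to 16.0 ± 1.63 in shHMGA2-1 and 5.77 in both libraries of shHMGA2-2, and HOXB9 made up nearly all of it.

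**Figure D2:**
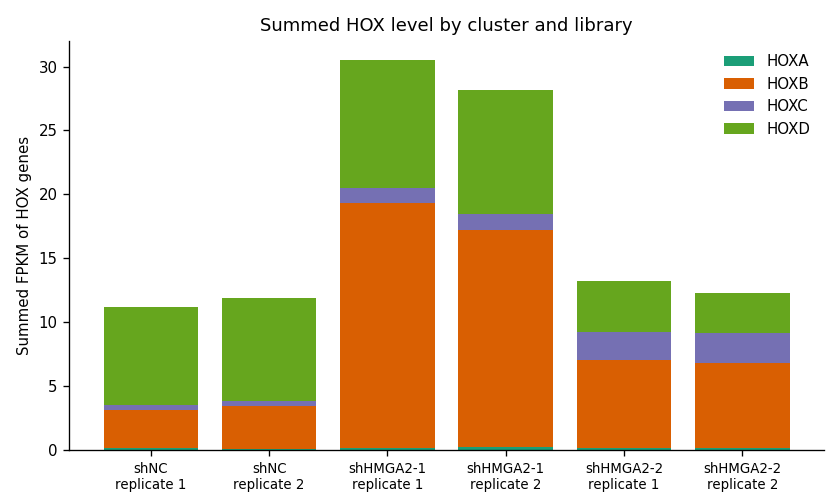
Summed FPKM of the HOX genes in each of the 6 libraries, stacked by cluster. The HOXB part is 2.94 and 3.37 with shNC, 19.1 and 17.0 with shHMGA2-1 and 6.87 and 6.62 with shHMGA2-2, while the HOXD part is smallest in shHMGA2-2.

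The order of the levels of single genes differed between the lines. In shNC the highest was HOXD4 (5.03 and 5.34 FPKM), followed by HOXD3 (1.91 and 2.25) and HOXB9 (1.71 and 2.07), whose ranges overlapped. HOXB3 (0.56 and 0.62), HOXD1 (0.66 and 0.41) and HOXB4 (0.44 and 0.56) came next, also with overlapping ranges. In shHMGA2-1 the highest was HOXB9 (16.6 and 14.3), then HOXD4 (6.46 and 7.56), HOXD3 (1.97 and 1.48) and HOXB4 (1.13 and 1.11), which were separate from each other. HOXD1 (1.36 and 0.59) overlapped with HOXB4. HOXB9 was again highest in shHMGA2-2 (5.33 and 5.27), followed by HOXD4 (2.99 and 2.55) and HOXC6 (0.81 and 1.10), while HOXC8 (0.88 and 0.62) overlapped with HOXC6.

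In shHMGA2-1, 4 HOX genes rose against shNC and none of the tested members fell: HOXB9, HOXB8, HOXB4 and HOXC6. They were tested by quasi-likelihood in edgeR, with p adjusted after Benjamini and Hochberg for 16110 genes, and a gene was called where the adjusted p was below 0.05 and the levels differed by 2-fold or more. In this comparison 8.49% of all tested genes were called, 4.89% as higher and 3.59% as lower, beside 4 of the 10 tested members, or of 39 in all. In shHMGA2-2, 3 HOX genes rose (HOXB9, HOXC6 and HOXC8) and 2 fell (HOXD3 and HOXD4), beside 21.3% of all genes called, 11.7% as higher and 9.65% as lower. Members that pass a filter on low counts may pass through the group in which they are high. The median log2 fold change of the 10 tested members was 0.95 in shHMGA2-1 and 0.04 in shHMGA2-2. Over all genes tested it was 0.01 and 0.03. Both comparisons use the same shNC libraries.

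**Figure D3:**
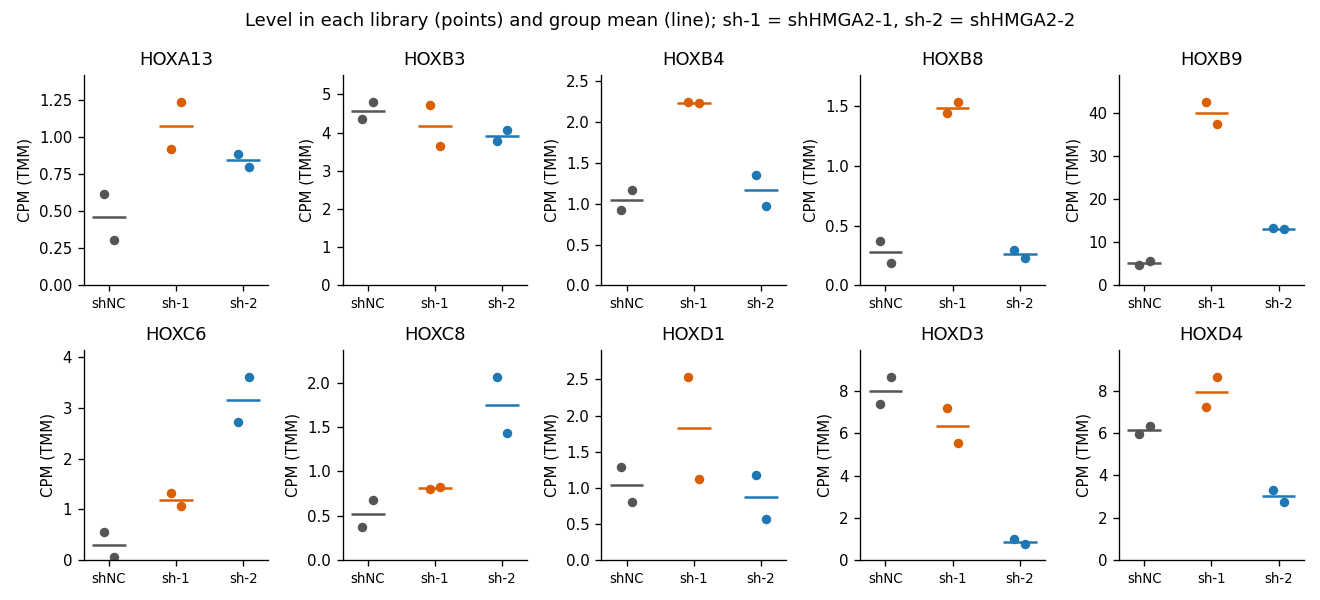
Level of the 10 tested HOX genes in CPM scaled by TMM, with a point for each library and a line for the mean of each group; each panel has its own axis from 0. HOXB9 differs between all 3 lines, and HOXD3 is low in shHMGA2-2 alone.

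HOXB9, the gene between HOXB8 and HOXB13 and a member of the posterior group, had the largest change of the tested members in shHMGA2-1. Its counts were 75 and 91 in the control libraries, 737 and 635 for shHMGA2-1 and 227 and 226 for shHMGA2-2. The lines did not overlap, and shHMGA2-2 lay between the others. Against shNC, shHMGA2-1 was higher by a log2 fold change of 2.97 with a standard error of 0.138 (adjusted p = 2.49e-14 by edgeR), and shHMGA2-2 by 1.37 (standard error 0.153, adjusted p = 3.67e-08 by edgeR). In GENCODE 29 its exons overlapped those of no other gene of the table.

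Its neighbour HOXB8, a central member, rose in shHMGA2-1. Counts were 6 and 3 with shNC, 25 and 26 with shHMGA2-1, and 5 and 4 with shHMGA2-2. HOXB8 reached the minimum count of 10 in shHMGA2-1 alone, so it passed the filter only through the line in which it was high. The difference in shHMGA2-1 was 2.39 on the log2 scale with a standard error of 0.553 (adjusted p = 0.00153 by edgeR) and that in shHMGA2-2 was -0.08 (adjusted p = 0.938 by edgeR). HOXB4, a central gene known from blood stem cells, had counts of 15 and 19 in the control libraries, 39 and 38 for shHMGA2-1 and 23 and 17 for shHMGA2-2. It changed by 1.10 (standard error 0.368, adjusted p = 0.0237 by edgeR) in shHMGA2-1, a call that was lost by DESeq2 (adjusted p = 0.183) and without any of the 4 libraries of that comparison (adjusted p = 0.0598 to 0.153 by edgeR). In shHMGA2-2 its log2 fold change was 0.15. In GENCODE 29, where HOXB4 has 3757 exonic bases against 2002 in the table, 17.1% of them are shared with other genes of the table on the same strand. Most of this (12.8%) is shared with AC103702.1, which lies outside the span of HOXB4 in the table. HOXB3 shares 4.23%.

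HOXB3, an anterior member, had similar counts in all lines. Counts were 71 and 78 with shNC, 82 and 62 with shHMGA2-1, and 64 and 71 with shHMGA2-2, and the log2 fold changes of -0.13 (standard error 0.219) and -0.22 did not pass the test. HOXB7, which lies between HOXB6 and HOXB8 in the numbering, had too few counts to be tested: 2 and 0 in the control libraries, 2 and 9 for shHMGA2-1 and 4 and 4 for shHMGA2-2. Along the tested genes of HOXB the log2 fold changes in shHMGA2-1 were thus -0.13 at HOXB3, 1.10 at HOXB4, 2.39 at HOXB8 and 2.97 at HOXB9, the order of the genes. HOXB8 is among them only because it passed the filter through shHMGA2-1. HOXB5, HOXB6 and HOXB7, between HOXB4 and HOXB8, were not tested. The standard errors of HOXB8 and HOXB9 overlap, and in shHMGA2-2 the values did not follow the order (-0.22, 0.15, -0.08 and 1.37). HOXB13, at the far end of the cluster, was at 0 in every library.

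In HOXC, both tested genes were central members and were higher in shHMGA2-2. HOXC6 was counted at 9 and 1 with shNC, 23 and 18 with shHMGA2-1, and 46 and 63 with shHMGA2-2. The control libraries differed from each other, and all 4 knockdown libraries lay above both. It rose by 1.93 on the log2 scale in shHMGA2-1 (standard error 0.575, adjusted p = 0.0113 by edgeR) and by 3.33 in shHMGA2-2 (standard error 0.496, adjusted p = 3.18e-06 by edgeR). The size depended on the controls: without shNC replicate 2 it was 1.10 (adjusted p = 0.184 by edgeR) in shHMGA2-1 and 2.50 in shHMGA2-2, and without shNC replicate 1 it was 4.12 and 5.52. In GENCODE 29, 15.7% of its exonic bases are shared with other genes of the table, HOXC4 among them.

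HOXC8 counts were 6 and 11 in the control libraries, 14 and 14 for shHMGA2-1 and 35 and 25 for shHMGA2-2. All 4 knockdown libraries lay above the controls. It rose by 1.73 on the log2 scale in shHMGA2-2 (standard error 0.476, adjusted p = 0.00315 by edgeR), and was at 0.63 in shHMGA2-1 (adjusted p = 0.393 by edgeR). Without shHMGA2-2 replicate 1 the former was 1.44, with an adjusted p of 0.052 by edgeR.

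HOXC5, HOXC9 and HOXC4 were over 3 counts in some libraries but were not tested. For HOXC5 the shNC libraries gave 0 and 1 counts, those of shHMGA2-1 8 and 10, and those of shHMGA2-2 9 and 5. The ratio of its summed CPM to shNC was 17.1 (95% counting interval 2.69 to 710.2) in shHMGA2-1 and 13.2 (2.02 to 559.9) in shHMGA2-2. With no filter on low counts it was called in both lines, with an adjusted p of 0.00893 and 0.0165 by edgeR, and 59.9% of its exonic bases are shared with another entry on the same strand. For HOXC9 the counts in the same order were 2 and 0, 5 and 5, and 4 and 7, with ratios of 4.74 (1.01 to 44.5) and 5.20 (1.14 to 48.3). These intervals cover counting error only. For HOXC4 they were 1 and 3, 0 and 0, and 0 and 6, and shHMGA2-2 overlapped with both other lines.

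In HOXD, the pair HOXD3 and HOXD4 fell in shHMGA2-2. HOXD3, an anterior member, was counted at 120 and 141 with shNC, 125 and 94 with shHMGA2-1, and 17 and 13 with shHMGA2-2. The shHMGA2-2 libraries lay far below the other 4, which overlapped. On the log2 scale it was at -3.19 in shHMGA2-2 (standard error 0.268, adjusted p = 2.44e-10 by edgeR) and at -0.33 (standard error 0.192, adjusted p = 0.197 by edgeR) in shHMGA2-1. HOXD4, a central member, had counts of 97 and 103 in the control libraries, 126 and 147 for shHMGA2-1 and 56 and 48 for shHMGA2-2. It fell by 1.02 on the log2 scale (standard error 0.209, adjusted p = 0.000182 by edgeR) in shHMGA2-2, just past 2-fold, and was at 0.37 (adjusted p = 0.125 by edgeR) in shHMGA2-1. With upper quartile scaling it was at -0.91, under 2-fold with an adjusted p of 0.000651 by edgeR, and it was also under 2-fold without shNC replicate 2 (-0.98) or shHMGA2-2 replicate 2 (-0.90). The HOXD3 transcript shares an exact run of 62 bases with that of HOXB3, its paralogue. The HOXD4 exons overlapped those of no other gene of the table. The GENCODE gene AC009336.2, on the same strand, has no row in the table. It covers 80.5% of the exonic bases of HOXD4 and 62.2% of those of HOXD3. The part of AC009336.2 in the counts of HOXD3 and HOXD4 was not tested.

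HOXD1, at the anterior end of the cluster, varied within each line. Counts were 21 and 13 with shNC, 44 and 19 with shHMGA2-1, and 20 and 10 with shHMGA2-2, and all 3 lines overlapped. The log2 fold changes of 0.80 and -0.26 did not pass the test, but without shHMGA2-1 replicate 2 the former was 1.27 (adjusted p = 0.036 by edgeR). Genes on the opposite strand share 58.1% of its exonic bases. HOXD12 was not tested, at 3 and 0 counts in the controls, 7 and 4 in shHMGA2-1 and 2 and 0 in shHMGA2-2. HOXD8, HOXD9, HOXD10 and HOXD13 were at 0 throughout.

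HOXA13, the posterior end of HOXA, was the tested member of that cluster. Counts were 10 and 5 in the control libraries, 16 and 21 for shHMGA2-1 and 15 and 14 for shHMGA2-2. All 4 knockdown libraries lay above the controls, but the log2 fold changes of 1.21 (standard error 0.527, adjusted p = 0.0815 by edgeR) and 0.86 (adjusted p = 0.183 by edgeR) did not pass.

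**Figure D4:**
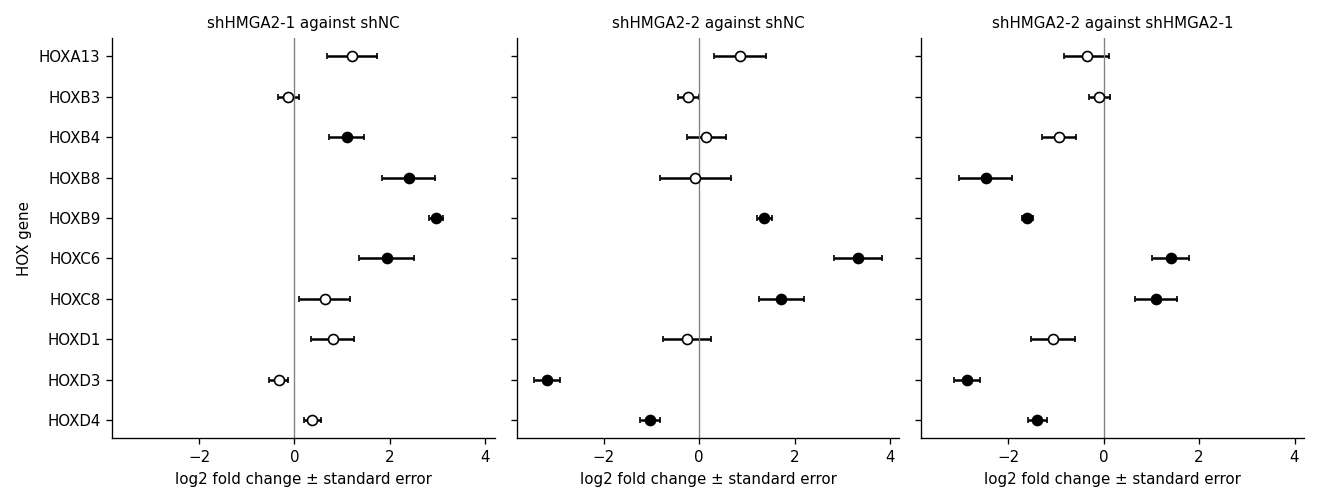
Log2 fold change with its standard error for the 10 tested HOX genes in 3 comparisons, with filled points for called genes (edgeR, adjusted p under 0.05 and at least 2-fold). HOXB9 lies at 2.97 and 1.37 against shNC, and HOXD3 at -0.33 and -3.19.

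The knockdown lines were also compared with each other. Of the 10 tested members, 6 were called between shHMGA2-2 and shHMGA2-1, 2 higher and 4 lower in shHMGA2-2, beside 15.1% of all genes, 7.83% higher and 7.27% lower. On the log2 scale HOXD3 was at -2.86 in shHMGA2-2 over shHMGA2-1 (standard error 0.275, adjusted p = 4.37e-09 by edgeR), HOXB8 at -2.47 (adjusted p = 0.000584), HOXB9 at -1.60 (adjusted p = 4.09e-11) and HOXD4 at -1.39 (adjusted p = 2.79e-06). HOXC6 was higher by 1.40 (adjusted p = 0.00366 by edgeR) and HOXC8 by 1.09 (adjusted p = 0.0402 by edgeR). By DESeq2 HOXC6 and HOXC8 were not called (adjusted p = 0.0599 and 0.237). HOXC6 was also lost without shHMGA2-2 replicate 2 (adjusted p = 0.088 by edgeR), and HOXC8 without shHMGA2-1 replicate 1 or 2 or shHMGA2-2 replicate 1 (adjusted p = 0.109, 0.100 and 0.262 by edgeR). HOXB4 passed the adjusted p but not 2-fold (-0.94, adjusted p = 0.0314 by edgeR). HOXD1 (-1.06, standard error 0.462, adjusted p = 0.0595 by edgeR, but -1.53 and 0.00944 without shHMGA2-1 replicate 2, and -1.07 and 0.0287 with no filter on low counts), HOXA13 (-0.35, standard error 0.47) and HOXB3 (-0.09, standard error 0.222) did not pass.

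Taking the 4 knockdown libraries as a single group, edgeR called 0 HOX genes, beside 3.09% of all genes. At an unadjusted p under 0.05 there were 2, HOXB9 (log2 fold change 2.38, standard error 0.628, adjusted p = 0.0842 by edgeR) and HOXC6 (2.80, standard error 0.893, adjusted p = 0.125 by edgeR). DESeq2 called the same 2 genes, with adjusted p = 0.000147 and 0.0146. In this fit the difference between the knockdown lines counts as error, and the biological coefficient of variation over all genes was 0.291, against 0.0583 with 3 groups.

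Noncoding and readthrough genes of the clusters, taken from a list of symbols, also had few counts. Of 24 found in the table, 15 had 0 counts in every library and 1 was tested: HAGLR, an antisense RNA that lies between HOXD3 and HOXD1 on the opposite strand. Counts of HAGLR were 578 and 557 with shNC, 647 and 606 with shHMGA2-1, and 227 and 268 with shHMGA2-2. It fell in shHMGA2-2, by 1.28 on the log2 scale (standard error 0.11, adjusted p = 3.9e-10 by edgeR), and was at 0.06 (adjusted p = 0.675 by edgeR) in shHMGA2-1. HAGLR exons share 3.78% of the exonic bases of HOXD3 and 8.0% of those of HOXD1. The strand setting of the counting is not given in the sources used here, so reads of these overlaps cannot be told apart. ENSG00000260597, which has no symbol and lies within HOXC, was named after its values were seen. It is outside that list and was tested, with 0 counts in shNC and shHMGA2-1 and 16 and 12 in shHMGA2-2 (adjusted p = 0.000168 by edgeR in shHMGA2-2). It passed the filter on low counts only through shHMGA2-2, the line in which it was high. Its p-value is thus no independent support for a difference.

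The tested genes nearest to each cluster were 16, 4 for each. In shHMGA2-1, 1 of them was called, or 6.25% beside 8.49% of all genes, and in shHMGA2-2, 3 or 18.8% beside 21.3%. SNX10, a sorting nexin 718610 bases before HOXA, rose in both lines, from 9 and 18 counts in shNC to 118 and 143 in shHMGA2-1 and 293 and 301 in shHMGA2-2 (log2 fold changes 3.18 and 4.37). SMUG1, a DNA repair glycosylase beside HOXC, rose by 1.01 on the log2 scale in shHMGA2-2 (adjusted p = 1.17e-05 by edgeR). SUMO2P17 beside HOXB rose by 1.53 (adjusted p = 0.0285 by edgeR) in the same line, but is a pseudogene that can share reads with its parent gene. LNPK and MTX2, on either side of HOXD, passed the adjusted p without reaching 2-fold in shHMGA2-2, at -0.57 and -0.45, and were at -0.0047 and -0.02 in shHMGA2-1. Genes further out, within 500 kb, were named after their values were seen. In shHMGA2-2 LINC01116 and LINC01117 beside HOXD were at -2.18 and -2.23, and CBX5 beside HOXC at -2.13. NFE2L1-DT beside HOXB was higher in that line, at 1.65. In shHMGA2-1 these 4 were at -0.17, -0.24, -0.27 and -0.71.

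**Figure D5:**
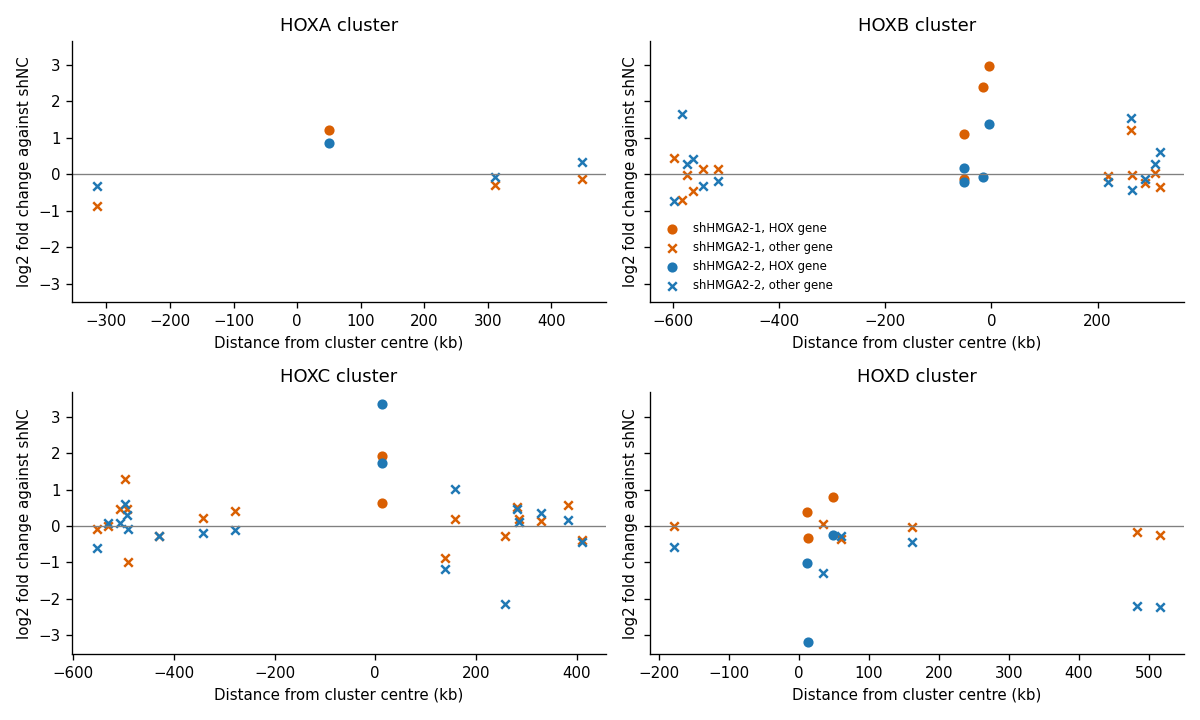
Log2 fold change against shNC of 48 tested genes within 500 kb of the clusters, by distance from the centre of each cluster; circles are HOX genes and crosses other genes. The lowest point is HOXD3 in shHMGA2-2 at -3.19, and 1 gene with shNC at 0 counts was left out.

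Of the proteins that bind DNA with HOX proteins, 8 of 9 TALE genes were tested. In shHMGA2-1, 1 of the 8 was called (12.5%, beside 8.49% of all genes), MEIS3, whose counts were 15 and 13 in the control libraries, 70 and 77 for shHMGA2-1 and 9 and 9 for shHMGA2-2 (log2 fold change 2.30, adjusted p = 6.02e-06 by edgeR in shHMGA2-1). In shHMGA2-2, 2 were called (25%, beside 21.3% of all genes), MEIS1 among them. It fell by 2.89 on the log2 scale (adjusted p = 9.72e-08 by edgeR), from 65 and 56 counts in shNC to 8 and 9. The median of the list was 0.28 in shHMGA2-1 and -0.38 in shHMGA2-2.

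Genes of the machinery that keeps HOX clusters active or silent mostly stayed under 2-fold, as did most of all genes tested. In shHMGA2-1, 0% of either list was called at 2-fold, beside 8.49% of all tested genes. In shHMGA2-2 it was 7.69% of the Trithorax and MLL list and 8.7% of the Polycomb list, beside 21.3% of all tested genes. Of 13 Trithorax and MLL genes, all tested, 7 passed the adjusted p in shHMGA2-1 (2 higher, 5 lower), each under 2-fold, beside 33.5% of all genes. In shHMGA2-2, 5 passed, beside 58.8% of all genes, and 1 was called, KDM6A, a demethylase that removes a histone mark that Polycomb proteins place, which rose by 1.12 on the log2 scale (adjusted p = 1.17e-10 by edgeR). Of 23 Polycomb genes, 10 passed in shHMGA2-1 (6 higher, 4 lower), again under 2-fold, and 14 in shHMGA2-2 (6 higher, 8 lower). EZH1, a methyltransferase that places this mark, and RBBP4, a histone-binding subunit, rose by 1.01 and 1.04 in shHMGA2-2. The medians of both lists lay between -0.11 and 0.11 in both comparisons.

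Homeobox genes related to the clusters but outside them were also few. Of 15 such genes, 10 were at 0 in every library and 2 were tested. Both were called as higher, beside 4.89% of all tested genes in shHMGA2-1 and 11.7% in shHMGA2-2. With few counts in shNC, such genes may pass the filter on low counts through the lines in which they are high. MNX1, a gene of motor neuron and pancreas development, went from 8 and 19 counts in shNC to 158 and 118 in shHMGA2-1 and 155 and 131 in shHMGA2-2 (log2 fold changes 3.26 and 3.31). EN2, a gene of the midbrain and hindbrain boundary, went from 3 and 6 to 49 and 44 and to 64 and 76 (3.26 and 3.84). The log2 differences of shHMGA2-2 over shHMGA2-1, 0.05 and 0.59, did not pass the test.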

How the data were processed

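RNA of 6 MDA-MB-231 libraries was analysed from a single table. The authors deposited raw whole-number counts per gene and FPKM values, which equal counts divided by exonic size and library total for 100% of values within 0.0051 FPKM. The submitters' processing notes name HISAT2 version 2.2.1, HTSeq version 0.6.1 and the build GRCh38.p13, and the annotation, read length, strand setting and handling of overlaps are not given in the sources used here. Annotation was taken from GENCODE 29, which held 39 of 39 members, 12 with the same start and end as in the table.

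The 39 members were found by symbol. Members and gene lists were chosen with earlier results of these data known. Every member above 3 counts in a library was named, as were at most 4 called genes of each other list with the largest change, and exceptions are stated where they occur. A gene that this rule names is not reported here. Counts were tested with edgeR version 4.0.16 in R version 4.3.3 (TMM, filterByExpr with a minimum count of 10, quasi-likelihood test, Benjamini-Hochberg adjustment over 16110 genes). The model had 3 groups, or 2 for all shHMGA2 against shNC. The standard error of a fold change is its size divided by the square root of F. On simulated counts with 200 changed genes, edgeR recovered 200 in each of 3 comparisons (shHMGA2-1, shHMGA2-2 and all shHMGA2 against shNC, over 15570, 15559 and 15573 genes) with 1, 3 and 4 false calls. The changed genes were drawn from genes with levels above those of HOXB4, HOXB8, HOXC6 and HOXC8. The simulated coefficient of variation was near that of the 3-group fit (0.0583) and below that of the 2-group fit (0.291). How well changes are recovered in such members, or in the 2-group fit, was thus not tested. Replicates of a line differed by more than counting noise, with chi-square per degree of freedom of 2.03, 6.21 and 2.91. Intervals and the floor of 3 counts cover counting error alone, as no molecular identifiers are given. Alternatives were DESeq2 version 1.42.0 and its size factors, upper quartile scaling, no filter, the adjusted p alone, the replicate number as a block, summed CPM in place of FPKM, and each library left out. Homeobox sequences were located in GENCODE transcripts, since proteins were not used here. Sample columns not used numbered 0.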

Additional observations from a re-analysis of the deposited data

Results flagged for a closer look

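The difference between shHMGA2-2 and shHMGA2-1 passed edgeR's test at 2-fold or more for 6 of the 10 tested HOX genes, beside 15.1% of all tested genes. Each is given as the log2 fold change of shHMGA2-2 against shHMGA2-1. HOXD3 was at -2.86, HOXB8 at -2.47, HOXB9 at -1.60 and HOXD4 at -1.39, all lower in shHMGA2-2. HOXC6 was at 1.40 and HOXC8 at 1.09, both higher in shHMGA2-2. By DESeq2 neither HOXC6 nor HOXC8 was called, and HOXC8 was also lost with the replicate number as a block. Since each line has its own hairpin and, per the study's methods, its own clone, these cannot be told apart.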

How the results depend on the processing

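HOX calls numbered 4 in shHMGA2-1, 5 in shHMGA2-2, 6 between the lines and 0 for all shHMGA2. Leaving out each library gave 2 to 4, 4 to 5, 5 to 6 and 0. The count of 2 came without shNC replicate 2, when HOXC6 and HOXB4 were lost. DESeq2 gave 3, 5, 4 and 2, upper quartile scaling 4, 4, 6 and 0, and no filter 5, 6, 7 and 0. Upper quartile scaling moved the median of all genes in shHMGA2-2 by 0.115 (log2). Same-numbered libraries did not deviate together (r = -0.10 to 0.0021), so the values give no sign of pairing by number. Whether such libraries were prepared together cannot be told from these values, and the labels do not say. The replicate block gave 4, 5, 5 and 0, with HOXC8 lost between the lines (adjusted p = 0.0604 by edgeR).

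The percent of the summed HOX level was taken per length. By summed CPM it was 1.77%, 1.63% and 3.05% for HOXA and 39.5%, 70.2% and 61.6% for HOXB, in shNC, shHMGA2-1 and shHMGA2-2. In the same order it was 3.73%, 4.24% and 19.5% for HOXC and 55.0%, 24.0% and 15.9% for HOXD. The order of the lines by these mean percents was kept for HOXA, HOXB, HOXC and HOXD. For HOXA the libraries of shNC (2.49% and 1.05% of CPM) and shHMGA2-1 (1.35% and 1.90%) overlapped.

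Signs turned for values near 0 that had not passed the test. HOXB8 in shHMGA2-2 was at 0.034 with upper quartile scaling. With libraries left out, it ranged from -0.48 to 0.48, HOXD1 in shHMGA2-2 from -0.86 to 0.17, HOXB4 in shHMGA2-2 from -0.10 to 0.37, HOXB3 in shHMGA2-1 from -0.33 to 0.044, HOXB3 between the lines from -0.27 to 0.10, HOXD1 in all shHMGA2 from -0.13 to 0.75, and HOXD4 in all shHMGA2 from -0.47 to 0.055. The cause was not tested. Of the 39 members, 29 did not pass the filter on low counts.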
